A study of Mus musculus with 16 samples.

Results

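The 38 genes described here build cholesterol and fatty acids, control that synthesis, or answer to the sterol level of the cell. They were listed by name from textbook pathway membership, with no threshold on their values but with earlier results of these data known, and all 38 were found among the 13652 genes that the count files hold. They fall into 18 genes of sterol synthesis (Acat2, Hmgcs1, Mvk, Pmvk, Mvd, Idi1, Fdps, Fdft1, Sqle, Lss, Cyp51, Tm7sf2, Msmo1, Nsdhl, Hsd17b7, Ebp, Sc5d and Dhcr7), 6 genes of sterol sensing and transport (Srebf1, Srebf2, Scap, Insig1, Insig2 and Stard4), 11 genes of fatty acid synthesis (Acly, Acss2, Acaca, Fasn, Scd1, Scd2, Elovl1, Elovl5, Elovl6, Fads1 and Fads2), and 3 genes induced by sterol excess (Abca1, Abcg1 and Mylip), called the sterol export genes below. Each had counts in every library, and no filter removed any.

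The cells were AML246, a mouse acute myeloid leukaemia line grown in serum with IL-3, in which doxycycline restores the transcription factor PU.1 and its removal knocks PU.1 down again. From what is known of the study, the knockdown comes from a hairpin that doxycycline switches off. RNA was sequenced from 16 libraries in 8 groups of 2 replicates, A and B. The groups were untreated cells (day 0), cells after 4, 8 and 12 days in 0.1 µg/mL doxycycline (day 4, day 8, day 12), the Cd11b-high fraction of day 12, and cultures kept for 4, 8 and 12 days without the drug once it had been taken away at day 12. Viable cells were sorted by flow cytometry in all groups, and outside the Cd11b-high group no marker gate was applied. Untreated cells were sampled only at day 0, so doxycycline, PU.1 and time in culture cannot be told apart in comparisons with day 0. The labels do not say whether AML246 is a clone, nor whether replicates were separate cultures, so p-values measure only the spread between these libraries, which may be technical.

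Cholesterol is made from acetyl-CoA through mevalonate, isoprenyl units, squalene and lanosterol. When membrane sterol is low, SCAP carries the SREBP proteins, encoded by Srebf1 and Srebf2, out of the endoplasmic reticulum, and their cleaved forms enter the nucleus and induce both sterol and fatty acid enzymes. INSIG proteins hold SCAP back when sterol is plentiful. Oxysterols then activate LXR receptors, which induce the efflux pumps ABCA1 and ABCG1, the ubiquitin ligase MYLIP, and also Srebf1 and the desaturase Scd1. Dividing leukaemic and myeloid cells need both products for membranes.

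Promoter sequence was matched for 30 of the 38 genes in a RefSeq table of mouse promoters (GRCm38.p6, 250 bases before to 50 after each start, 300 bases in all). SREBP proteins act on many of these promoters together with NF-Y, which binds CCAAT, so the letters CCAAT were searched on both strands together with the sterol element core TCACNCCAC and its shorter form CACNCCAC, which lies inside it. The sequences below show 3 sterol enzymes with CCAAT (Hmgcs1, Mvd, Sc5d), the 1 matched sterol enzyme without it (Acat2), and the fatty acid synthase gene. They are bases before the start on the gene's own strand, at chr13:119690101-119690350 (plus strand) for Hmgcs1, chr8:122443423-122443672 (minus) for Mvd, chr9:42264301-42264550 (minus) for Sc5d, chr17:12960748-12960975 (minus) for Acat2 and chr11:120824548-120824797 (minus) for Fasn. None overlaps an exon in GENCODE M21; the last 22 bases before the Acat2 start were left out because they do. Capitals mark CCAAT, its reverse complement ATTGG, and the sterol element letters on either strand.
Hmgcs1: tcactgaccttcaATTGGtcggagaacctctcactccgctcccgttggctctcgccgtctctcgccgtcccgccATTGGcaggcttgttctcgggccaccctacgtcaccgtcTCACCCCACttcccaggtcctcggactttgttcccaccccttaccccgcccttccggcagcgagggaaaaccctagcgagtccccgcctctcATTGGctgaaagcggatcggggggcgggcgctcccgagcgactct
Mvd: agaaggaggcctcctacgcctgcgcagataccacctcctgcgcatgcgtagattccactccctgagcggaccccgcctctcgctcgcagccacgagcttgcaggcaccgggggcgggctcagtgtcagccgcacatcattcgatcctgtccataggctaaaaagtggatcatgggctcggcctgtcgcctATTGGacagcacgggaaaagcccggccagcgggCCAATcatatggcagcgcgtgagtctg
Sc5d: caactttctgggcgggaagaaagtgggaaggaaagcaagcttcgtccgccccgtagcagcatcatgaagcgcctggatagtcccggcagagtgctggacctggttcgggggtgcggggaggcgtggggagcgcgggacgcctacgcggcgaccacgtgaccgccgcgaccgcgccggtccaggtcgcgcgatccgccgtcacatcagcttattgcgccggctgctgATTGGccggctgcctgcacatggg
Acat2: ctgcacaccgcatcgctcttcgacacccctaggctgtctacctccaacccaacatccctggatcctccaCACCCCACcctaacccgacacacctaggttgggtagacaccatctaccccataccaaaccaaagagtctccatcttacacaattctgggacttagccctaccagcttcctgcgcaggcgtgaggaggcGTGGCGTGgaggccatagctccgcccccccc
Fasn: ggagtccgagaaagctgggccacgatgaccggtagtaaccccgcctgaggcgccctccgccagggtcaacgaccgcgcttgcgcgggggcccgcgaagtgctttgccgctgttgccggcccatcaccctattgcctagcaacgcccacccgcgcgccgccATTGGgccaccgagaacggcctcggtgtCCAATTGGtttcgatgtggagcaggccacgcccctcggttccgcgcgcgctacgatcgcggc

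Counting any promoter listed for a gene, CCAAT stood in the 300 bases of 14 of the 15 sterol synthesis genes that were matched, in 5 of 8 fatty acid genes and in 24 of all 30 matched genes. The share was 93.3% for sterol synthesis, 62.5% for fatty acid synthesis, 41.1% over all 27025 genes of the table and 43.4% over the 10257 matched genes of the count files. Hmgcs1 alone among the 30 held the longer sterol element, 137 bases before its start, against 1.44% of all genes. Acat2, the cytosolic thiolase that begins the pathway, held the shorter form at 2 positions, and Insig1 held it too; 7.12% of all genes did. Other letters were searched in the same windows. GAGGAA, the core of PU.1 sites, stood in 9 of the 30 matched genes (30%), against 31.3% of all genes and 30.3% of those in the count files. The GC box GGGCGG stood in 25 (83.3%), against 38.2% and 66.9%, and the E-box CACGTG in 7 (23.3%), against 8.09% and 11.6%. A match of letters is a description of the window and not of binding, which was not measured.

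Library totals ran from 12962801 to 26509803 counts. Spi1, the gene of PU.1, averaged 61.5 CPM (counts scaled to library size) at day 0, 197 to 239 CPM in the groups with the drug, and 46.0 to 60.8 CPM after withdrawal, so it follows the labelled schedule. Replicates A and B differed most 12 days after withdrawal, where a chi-square of their counts over genes was 73.5 per degree of freedom against 2.97 to 18.9 in the other groups. Markers of several lineages were present at once in these total cells: summed eosinophil markers (10 genes) ranged from 219 to 9581 CPM across libraries and summed neutrophil markers (9 of 10 in the files) from 35.7 to 2915 CPM. In bulk RNA, fewer cells of a type and less RNA per cell cannot be told apart.

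At day 0 the desaturase Scd2 had the highest level per length of the 38 genes (271 RPKM, reads per kilobase scaled to library size), followed by the SREBP brake Insig1 (132), the sterol methyl oxidase Msmo1 (124) and Srebf1 (90.8). The lowest were Abca1 (0.774 RPKM), the carboxylase Acaca (2.64) and the isomerase Idi1 (4.88). In sum the 38 genes took 0.627% and 0.725% of counts in the 2 day 0 libraries, 0.455% and 0.497% at day 8, and 0.920% and 1.10% 12 days after withdrawal. The smallest shares were thus those of day 8, and the largest single share was in replicate B of the last group. Values given below as CPM are scaled by library size with TMM factors, and folds are log2 ratios ± standard error (SE) from edgeR.

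**Figure D1:**
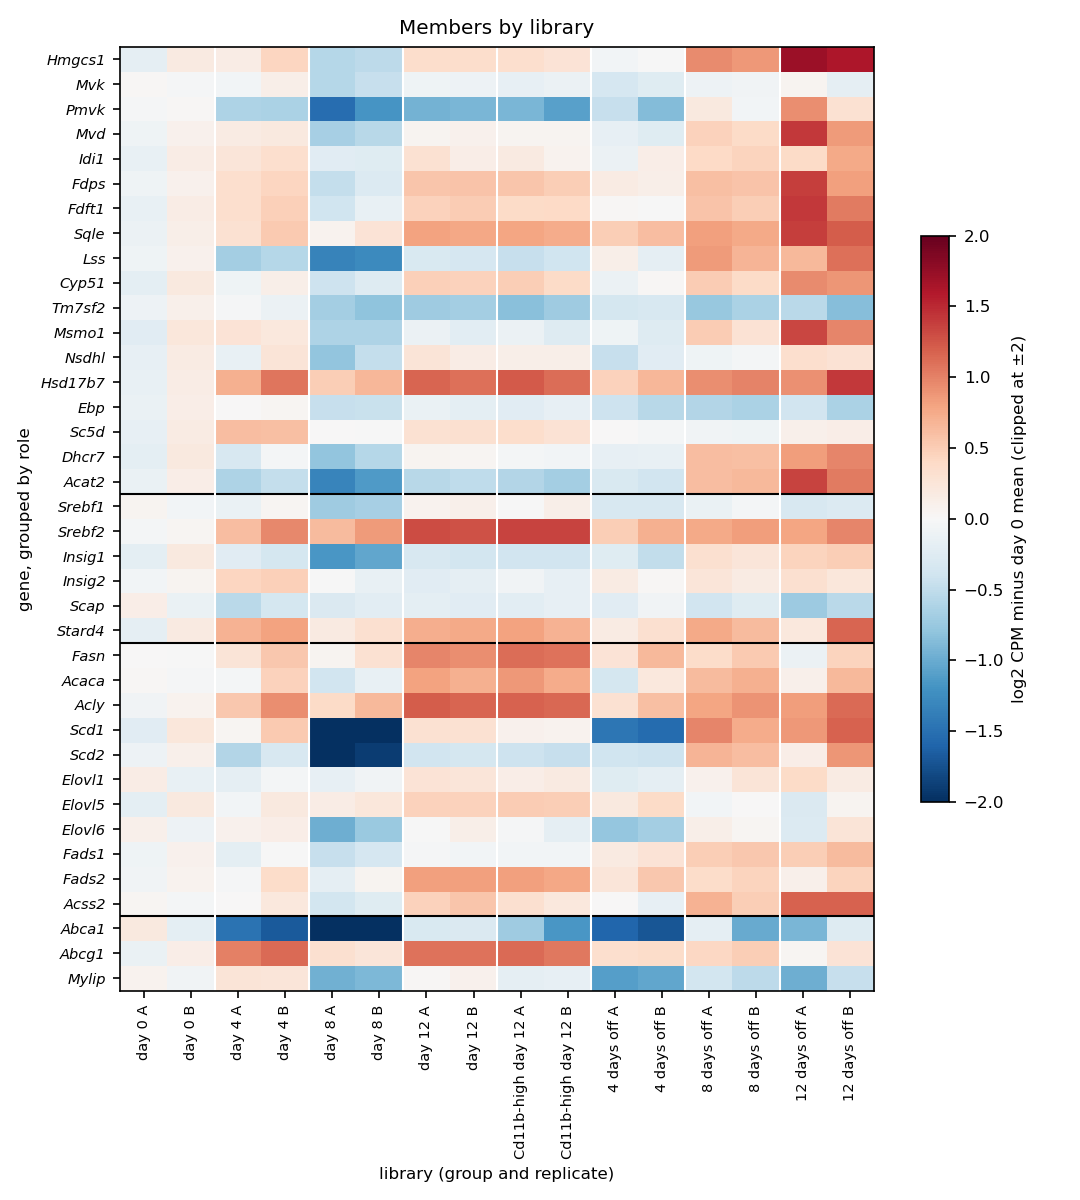
Each row is 1 of the 38 genes, grouped by role (sterol synthesis, sterol control, fatty acid, sterol export from top to bottom), and each column 1 of the 16 libraries. Colour gives log2 CPM minus the gene's day 0 mean, clipped at 2 in either direction; both day 8 columns are blue for most genes, and both columns 12 days after withdrawal are red for most sterol synthesis genes.

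The clearest feature of the 38 genes was a low point at day 8 of doxycycline. Against the mean of days 4 and 12, 24 of the 38 genes were lower at day 8 and 0 were higher (edgeR, adjusted p under 0.05), where 1.66% of all genes tested were lower and 0.835% higher. The genes that fell were 13 of 18 in sterol synthesis, 2 of 6 in sterol control, 6 of 11 in fatty acid synthesis and 3 of 3 in sterol export. The median log2 fold was -0.60 for the 38 genes, -0.60 for sterol synthesis, -0.56 for fatty acid synthesis and -1.08 for export, and 0.00 for all genes. This comparison was set up after the levels had been seen. With 2 libraries a group, groups that do not overlap are common among all genes (85.9% of them between day 12 and day 0), and for single genes below this is a description only. Both day 8 libraries lay below all 4 libraries of days 4 and 12 in 29 of the 38 genes and above them in 0; over all genes 10.5% lay below and 9.67% above.

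Scd1, which puts the double bond into stearoyl-CoA, moved most. Its level was 107 and 149 CPM at day 4, 7.97 and 12.6 CPM at day 8 and 128 and 128 CPM at day 12. Both day 8 libraries stood far under every other library in the series, the next lowest being the 2 libraries 4 days after withdrawal at 37.8 and 35.6 CPM. The fold at day 8 was -3.63 ± 0.21, or 12.4-fold lower (edgeR adjusted p = 5.2e-07). Its neighbour in function, Scd2, had 982 and 1183 CPM at day 4, 335 and 395 CPM at day 8 and 1123 and 1150 CPM at day 12, which was 3.04-fold lower at day 8 (log2 fold -1.60 ± 0.17, edgeR adjusted p = 0.00014). The 2 groups of Scd2 values did not overlap either. Scd1, Scd2 and the minor copies Scd3 and Scd4 resemble each other in sequence, so the counting could have shifted reads between them; Scd3 (log2 fold -1.85, adjusted p = 0.037) and Scd4 (-1.85, adjusted p = 0.022) were lower at day 8 too.

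The export genes fell together at day 8 against days 4 and 12. From day 0 to day 4 they had not moved alike: Abca1 fell (log2 fold -1.63), Abcg1 rose (1.07) and Mylip was not called (0.25). Abca1, which moves cholesterol to apolipoproteins, was at 2.77 and 2.38 CPM on day 4, 0.946 and 1.28 CPM on day 8, and 6.34 and 6.43 CPM on day 12. Day 8 was the lowest of the 3 days without overlap, at few counts, and the fold was -1.86 ± 0.33 (edgeR adjusted p = 0.0069). Without day 8 replicate A that p was 0.17, and without replicate B 0.088. Mylip, whose product sends lipoprotein receptors to degradation, stood at 31.4 and 31.1 CPM, then 13.4 and 14.1 CPM, then 26.5 and 27.9 CPM over days 4, 8 and 12. Its fold was -1.08 ± 0.13 (edgeR adjusted p = 0.00042) with no overlap. Abcg1, an efflux pump for high-density lipoprotein, fell by 0.79 ± 0.10 on the log2 scale (edgeR adjusted p = 0.00054), from 73.9 and 81.0 CPM at day 4 to 46.1 and 43.9 CPM at day 8, and was at 78.1 and 78.8 CPM on day 12. It remained above its day 0 level of 33.6 and 40.5 CPM throughout the drug.

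In sterol synthesis the fall at day 8 was smaller and more even, from log2 fold -0.36 for Tm7sf2 to -0.87 for Hmgcs1, and all 18 folds were negative. Hmgcs1, which makes HMG-CoA, went from 130 and 158 CPM at day 4 to 78.7 and 81.8 CPM at day 8 and to 149 and 149 CPM at day 12. The day 8 values were the lowest of Hmgcs1 in the series, and the fold was -0.87 ± 0.11 (edgeR adjusted p = 0.00061). Fdps, which makes farnesyl diphosphate, had a fold of -0.84 ± 0.13 (adjusted p = 0.0024), and Lss, the cyclase that closes the lanosterol rings, of -0.83 ± 0.13 (adjusted p = 0.0023). The 5 sterol synthesis genes that missed the threshold were Pmvk, Idi1, Tm7sf2, Hsd17b7 and Ebp, with adjusted p from 0.069 to 0.15. Only Tm7sf2 of the 18 had day 8 values that overlapped those of days 4 and 12.

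The control genes were split at day 8. Srebf1 was at 355 and 399 CPM on day 4, 238 and 247 CPM on day 8 and 408 and 419 CPM on day 12, a fold of -0.70 ± 0.09 (edgeR adjusted p = 0.00042) without overlap. Insig1, itself an SREBP target that feeds back on the pathway, went from 297 and 271 CPM to 155 and 168 CPM and back to 276 and 270 CPM (-0.79 ± 0.11, adjusted p = 0.0015). Srebf2, which codes for the SREBP that acts chiefly on sterol enzymes, had a fold of -0.29 ± 0.11 (adjusted p = 0.23), and the carrier gene Scap one of 0.08 ± 0.10 (adjusted p = 0.81). Both therefore missed the threshold, with day 8 values inside the range of days 4 and 12.

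Among the other fatty acid genes, Elovl6, which lengthens palmitate, was at 43.0 and 50.9 CPM on day 8 against 84.3 to 93.1 CPM in the 4 libraries of days 4 and 12 (-0.94 ± 0.13, edgeR adjusted p = 0.0015). Acss2, Fads2 and Acaca were lower as well, by 0.61, 0.56 and 0.76 on the log2 scale. Fasn, Acly, Elovl1, Elovl5 and Fads1 did not pass (adjusted p from 0.085 to 0.84). Fasn, the multifunctional fatty acid synthase, had 603 and 725 CPM at day 4, 523 and 621 CPM at day 8 and 992 and 951 CPM at day 12, so its day 8 values overlapped those of day 4.

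The low point rested in part on each library. The count of genes lower at day 8 was 6 without day 8 replicate A and 12 without day 8 replicate B, and 0 were higher in either case. The genes that kept the call in each of 12 settings were Abcg1, Hmgcs1, Mylip, Scd1, Scd2 and Srebf1. Taken alone, day 8 against day 4 gave 25 genes lower and 0 higher (7.16% and 6.78% of all genes), and day 12 against day 8 gave 24 higher and 0 lower (1.82% and 0.425% of all genes); both use the day 8 libraries again and add no independent evidence. The second count was 9 without day 8 replicate A, 13 without day 12 replicate A and 14 without day 12 replicate B. Summed neutrophil markers fell from 2290 to 2915 CPM at day 4 to 925 to 1043 CPM at day 8, and summed eosinophil markers were at 219 to 260 CPM on day 4, 3081 to 3444 CPM on day 8 and 8587 to 9581 CPM on day 12. Summed macrophage and monocyte markers (7 of 10 in the files) dipped at day 8 as the members did, from 1891 to 2012 CPM at day 4 to 1362 to 1402 CPM, and were at 1800 to 1825 CPM on day 12. Of those 7 genes, 2 were lower and 0 higher at day 8 against the mean of days 4 and 12. Of the 9 neutrophil genes 2 were lower and of the 10 eosinophil genes 2 higher. Of 7 immature myeloid genes 2 were higher and 0 lower, and of 7 basophil and mast cell genes 1 was higher and 0 lower. The part of these markers in the low point was not tested.

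**Figure D2:**
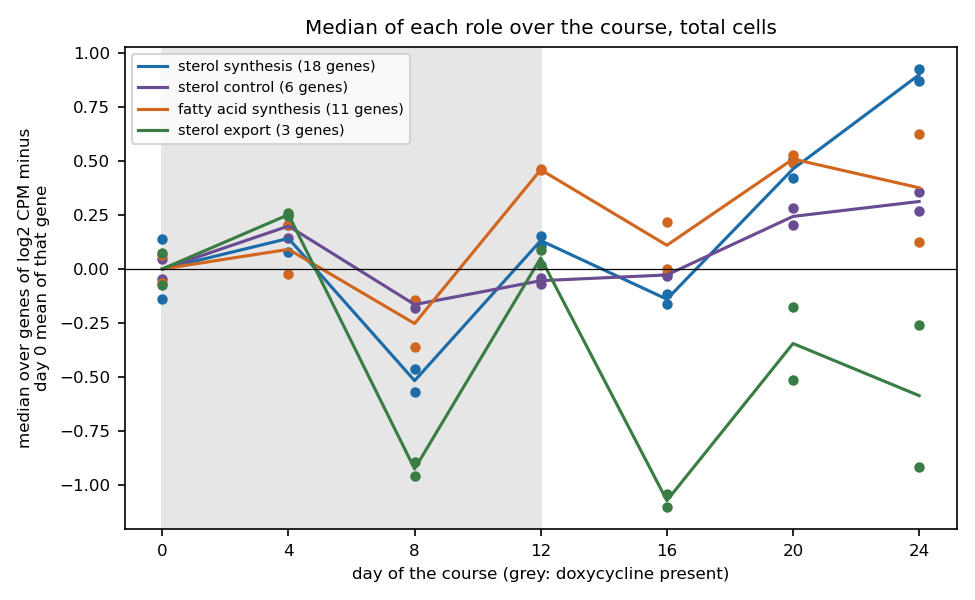
The vertical axis is the median over the genes of a role of log2 CPM minus the gene's day 0 mean, and the horizontal axis the day of the course in total cells, with doxycycline present in the grey span; points are libraries and lines join group means. All 4 roles dip at day 8, and sterol synthesis ends highest, at 0.93 and 0.87 in the 2 libraries 12 days after withdrawal.

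Each time with the drug was next set against untreated cells. At day 4, 11 of the 38 genes were higher and 6 lower than at day 0, where 28.2% of all genes were higher and 31% lower. The share that was higher was near that of all genes, and the share that was lower was below it. Without day 4 replicate B, 7 were higher, without day 0 replicate A 6 were, and without day 4 replicate A 3 were lower. At day 8, 4 were higher and 22 lower (27% and 30.2% of all genes), and 13 of the 22 were sterol synthesis genes. Without day 8 replicate B or without day 0 replicate A, 1 was higher. At day 12, 16 were higher and 4 lower (30% and 33.4% of all genes). Those 16 were 6 of the 11 fatty acid genes, 7 of 18 in sterol synthesis, 2 of 6 control genes and Abcg1.

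Acly, which splits citrate to cytosolic acetyl-CoA and so feeds both pathways, rose with the drug. It was at 298 and 326 CPM on day 0, 451 and 596 CPM on day 4, 406 and 490 CPM on day 8 and 722 and 700 CPM on day 12. No drug library overlapped those of day 0, and the fold at day 12 was 1.19 ± 0.15 (edgeR adjusted p = 7.0e-06). Fasn, at 505 and 498 CPM on day 0, had a day 12 fold of 0.95 ± 0.17 (adjusted p = 0.00017), Fads2, the delta-6 desaturase, of 0.82 ± 0.15 (adjusted p = 0.00021) and Acaca of 0.76 ± 0.20 (adjusted p = 0.0040). Fatty acid genes called lower at day 12 numbered 0, and Scd2 had a fold of -0.38 ± 0.18 (adjusted p = 0.081).

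Srebf2 had the largest rise of the 38 genes at day 12. It went from 261 and 277 CPM at day 0 to 412 and 523 CPM at day 4, 418 and 487 CPM at day 8 and 662 and 648 CPM at day 12, with no overlap with day 0 at any of these times. The day 12 fold was 1.28 ± 0.13 (edgeR adjusted p = 7.7e-07). Srebf1 had a fold of 0.08 ± 0.10 in the same comparison (adjusted p = 0.47), with values of 404 and 377 CPM at day 0 and 408 and 419 CPM at day 12. Hsd17b7, a 3-ketosterol reductase, rose at day 12 by 1.13 ± 0.16 (adjusted p = 2.8e-05) and the squalene epoxidase gene Sqle by 0.79 ± 0.12 (adjusted p = 3.6e-05). Abcg1 rose by 1.08 ± 0.11 (adjusted p = 1.1e-06).

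Against these rises, 4 genes were lower at day 12 than at day 0, namely Pmvk, Tm7sf2, Acat2 and Insig1. Pmvk, the phosphomevalonate kinase gene, was at 95.8 and 99.1 CPM on day 0, 63.7 and 62.8 CPM on day 4, 33.9 and 43.1 CPM on day 8 and 50.8 and 51.8 CPM on day 12. All 6 drug libraries lay below day 0, and the day 12 fold was -0.93 ± 0.18 (edgeR adjusted p = 0.00046). Acat2 had 57.0 and 68.6 CPM at day 0 and 42.7 and 43.8 CPM at day 12 (-0.54 ± 0.12, adjusted p = 0.0015). Tm7sf2, a sterol C14 reductase, fell by 0.69 ± 0.13 (adjusted p = 0.00022). Insig1 fell by 0.36 ± 0.13 (adjusted p = 0.022), a call that was lost without day 12 replicate A (0.072), day 12 replicate B (0.10) or day 0 replicate B (0.33). With library size alone as the scale, the median of all genes moved from -0.07 to -0.20 9 members were lower at day 12 in place of 4, and 3 of the 20 called members lost their call.

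Mitochondrially encoded genes took 6.35% and 7.36% of counts at day 0 and 2.01% to 3.59% in all other libraries. At day 0, 17 of the 18 sterol synthesis genes were higher in replicate B than in replicate A, by a median of 0.28 on the log2 scale. Without day 0 replicate A several member calls at day 12 were lost. Among them were the rises of Cyp51 (edgeR adjusted p = 0.0052 with all libraries) and Fdft1 (0.0062).

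Between the Cd11b-high fraction and total cells of day 12, none of the 38 genes passed the test: 0 were higher and 0 lower (edgeR), where 0% of all genes were higher and 0.0146% lower. At an unadjusted edgeR p under 0.05 there were 2 of the 38, against 309 of all 13652 genes. The 2 were Abca1 (-0.63 ± 0.28) and Acss2 (-0.24 ± 0.11). DESeq2 also called 0 of the 38. Fasn was at 992 and 951 CPM in total cells and 1087 and 1066 CPM in sorted cells (0.15 ± 0.17), and Hmgcs1 at 149 and 149 CPM against 148 and 141 CPM (-0.05 ± 0.12). Itgam, the Cd11b gene, was at 694 CPM in total and 912 CPM in sorted cells. That fold of 0.39 ± 0.16 was not called either (edgeR adjusted p = 1.0). Folds of the 38 genes ranged from -0.63 to 0.15.

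In the first 4 days without doxycycline, 21 of the 38 genes were lower than at day 12 and 2 higher, where 18.8% of all genes were lower and 18% higher. The genes that fell were 8 of 11 in fatty acid synthesis, 8 of 18 in sterol synthesis, 2 of 6 in control and 3 of 3 in export, and the medians were -0.48, -0.25, -0.21 and -1.13. Scd1 went from 128 and 128 CPM to 37.8 and 35.6 CPM, with no overlap (-1.80 ± 0.20, edgeR adjusted p = 9.3e-06). Mylip was at 12.2 and 12.7 CPM 4 days after withdrawal, its lowest in the series, against 26.5 and 27.9 CPM at day 12 (-1.13 ± 0.15, adjusted p = 4.0e-05). Abca1 fell by 1.38 ± 0.30 (adjusted p = 0.0026), Elovl6 by 0.78 ± 0.15 (adjusted p = 0.00097) and Srebf2 by 0.68 ± 0.13 (adjusted p = 0.00088). Summed macrophage and monocyte markers were at 1016 to 1130 CPM and eosinophil markers at 1186 to 1354 CPM in these libraries, both below day 12, and their part in these falls was not tested.

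Scd2 did not share the fall of Scd1 in that interval, at 1116 and 1104 CPM 4 days after withdrawal against 1123 and 1150 CPM (-0.03 ± 0.18, edgeR adjusted p = 0.90). The 2 genes called higher were Tm7sf2 (0.35 ± 0.13, adjusted p = 0.042) and Insig2 (0.30 ± 0.10, adjusted p = 0.031); DESeq2 called neither, and 0 were higher without replicate A of the withdrawn group or either day 12 library. The count of genes lower was 9 without replicate A of the withdrawn group and 12 without day 12 replicate A. With library size alone as the scale the median of all genes rose from 0.04 to 0.15, and 15 were lower and 4 higher. Compared with day 0, 7 were higher and 11 lower at this time (18.8% and 19.1% of all genes). Without day 0 replicate A or replicate B of the withdrawn group 2 were higher, and lower counts were 4 and 7 without replicates B and A of the withdrawn group and 5 without day 0 replicate B.

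Between 4 and 8 days after withdrawal the genes rose again: 19 were higher and 0 lower (11.6% and 12.4% of all genes). These were 10 of 18 in sterol synthesis, 6 of 11 in fatty acid synthesis, Insig1, Abca1 and Mylip. Scd1 rose by 2.36 ± 0.20, to 204 and 173 CPM (edgeR adjusted p = 2.3e-06), and Scd2 by 1.06 ± 0.18, to 2370 and 2245 CPM (adjusted p = 0.00082). Acat2 rose by 0.98 ± 0.12 (adjusted p = 6.9e-05) and Hmgcs1 by 0.94 ± 0.12 (adjusted p = 9.2e-05). Both libraries at 8 days were above both at 4 days for these 4 genes. The count was 10 without replicate A of the 8-day group and 12 without replicate A of the 4-day group. Compared with day 0, 21 genes were higher 8 days after withdrawal and 4 lower (16.2% and 16.9% of all genes); 13 were higher without replicate A of the 8-day group and 9 without day 0 replicate A, and 2 were lower without day 0 replicate A or without replicate B of the 8-day group.

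Most sterol enzymes were at their highest 12 days after withdrawal. Of the 18 sterol synthesis genes, 14 had their highest mean of the 7 total-cell groups there. Of the 11 fatty acid genes, 4 did, and 5 peaked at day 12. The same count was not made over all genes. The libraries of this group also differed most from each other, with a chi-square of 73.5 per degree of freedom. Compared with untreated cells, 22 of the 38 genes were higher and 5 lower (21.6% and 22% of all genes). Sterol synthesis contributed 13 of those rises with a median fold of 0.90, fatty acid synthesis 5 with a median of 0.40, and control genes 4; 0 export genes were higher. Some of these calls depended on single libraries, and most held in each setting. More were lost without day 0 replicate A than without day 0 replicate B or either library 12 days after withdrawal.

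Hmgcs1 was at 383 and 360 CPM 12 days after withdrawal, against 103 and 133 CPM at day 0 and 149 and 149 CPM at day 12. These 2 libraries exceeded every other library in the series, and the fold was 1.66 ± 0.13 against day 0 (edgeR adjusted p = 2.5e-07) and 1.32 ± 0.12 against day 12 (adjusted p = 3.6e-07). Sqle reached 487 and 431 CPM from 171 and 202 CPM at day 0 (1.30 ± 0.12, adjusted p = 1.2e-06). Msmo1 reached 567 and 441 CPM from 192 and 262 CPM (1.15 ± 0.15, adjusted p = 2.7e-05). For both genes the last group was the highest in the series, and A was above B.

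Acat2 and Pmvk, which were low under the drug, were among those that rose most against day 12. Acat2 was at 42.7 and 43.8 CPM on day 12 and 160 and 128 CPM 12 days after withdrawal, 3.33-fold higher (log2 fold 1.74 ± 0.12, edgeR adjusted p = 2.2e-08). Pmvk went from 50.8 and 51.8 CPM to 187 and 120 CPM, 2.99-fold higher (1.58 ± 0.19, adjusted p = 3.4e-06). Neither overlapped with day 12, though the replicates of Pmvk stood well apart.

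**Figure D3:**
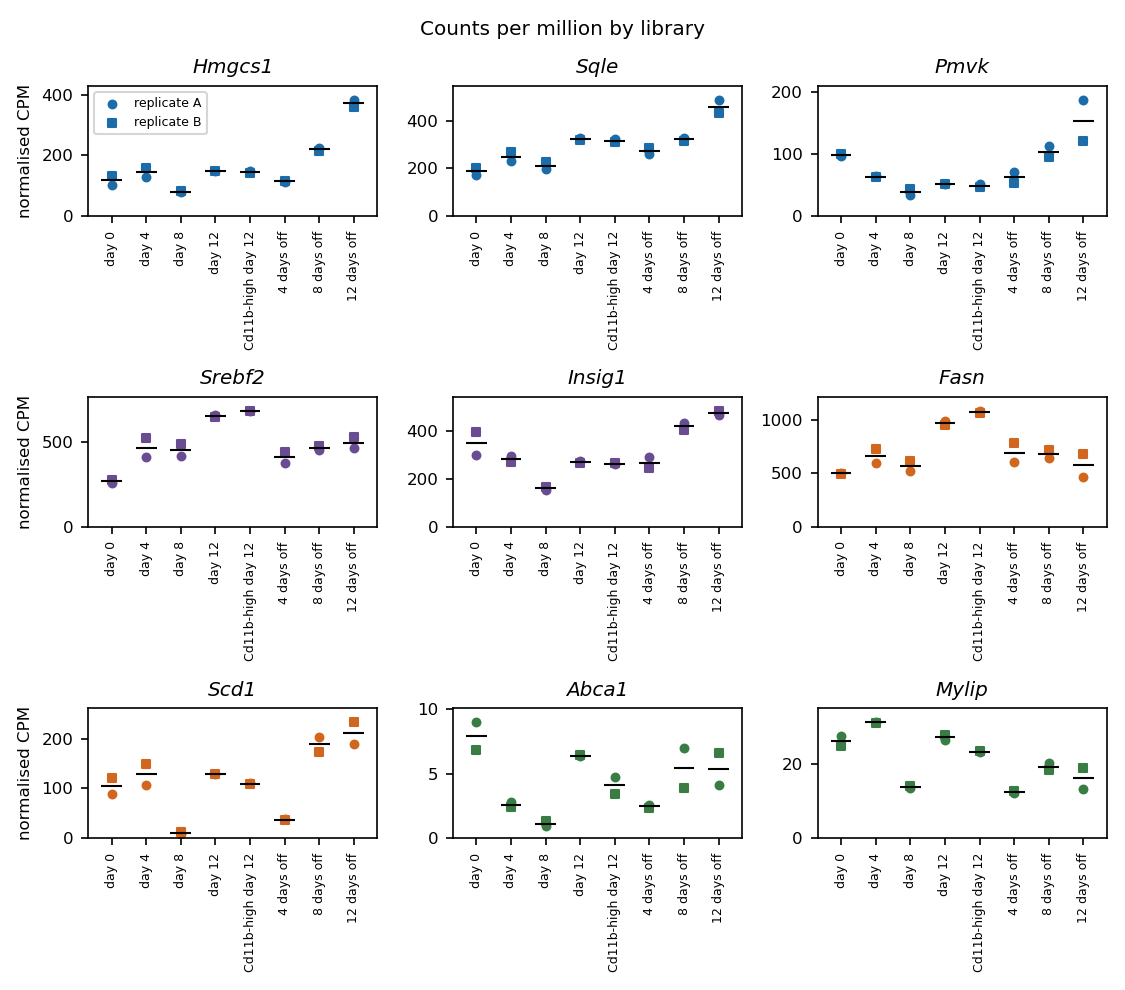
Each panel gives normalised CPM of 1 gene on a linear axis from 0 in the 8 groups; circles are replicate A, squares replicate B and bars the group mean. Scd1, Abca1 and Mylip show the day 8 low and a low again 4 days after withdrawal, Srebf2 and Fasn peak at or near day 12, and Hmgcs1, Sqle and Pmvk are highest 12 days after withdrawal.

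Against day 12, 18 of the 38 genes were higher 12 days after withdrawal and 9 lower (32.9% and 32.4% of all genes). Sterol synthesis had 12 higher and 1 lower, with a median of 0.54. Fatty acid synthesis had 4 of 11 higher and 3 lower, shares near those of all genes, with a median of -0.03. The median over its genes of log2 CPM minus day 0 mean was 0.13 and 0.63 in replicates A and B of the last group. It was 0.46 in both day 12 libraries. Fasn was at 464 and 686 CPM against 992 and 951 CPM at day 12 (-0.76 ± 0.17, edgeR adjusted p = 0.0011), Elovl5 fell by 0.57 ± 0.14 (adjusted p = 0.0024) and Fads2 by 0.54 ± 0.15 (adjusted p = 0.0051). Scd2 rose by 0.92 ± 0.18 (adjusted p = 0.00041), Scd1 by 0.72 ± 0.19 (adjusted p = 0.0038), Acss2, which makes acetyl-CoA from acetate, by 0.67 ± 0.11 (adjusted p = 7.7e-05) and Fads1 by 0.59 ± 0.10 (adjusted p = 0.00016). The difference between the branches is given as counts and medians and was not tested. Higher counts were 19 and 17, and lower counts 8 and 11, without replicates A and B of the last group.

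Not every sterol enzyme took part. Ebp, the sterol isomerase gene, was at 34.0 and 40.4 CPM on day 0 and 28.3 and 23.9 CPM 12 days after withdrawal (-0.51 ± 0.12, edgeR adjusted p = 0.0026). Tm7sf2 went from 31.1 and 35.6 CPM to 22.8 and 18.3 CPM (-0.70 ± 0.13, adjusted p = 0.00048). Both groups of values were apart from day 0, in the direction opposite to the 13 sterol genes that rose. Mvk, the mevalonate kinase gene, had a fold of -0.06 ± 0.10, Nsdhl of 0.31 ± 0.15 and Sc5d of 0.11 ± 0.10 (adjusted p from 0.10 to 0.67), and none of these 3 was called.

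Among the export genes, Mylip was at 13.3 and 19.0 CPM 12 days after withdrawal against 27.6 and 24.9 CPM at day 0 (-0.70 ± 0.14, edgeR adjusted p = 0.0012). Abcg1, at 37.9 and 44.5 CPM, overlapped its day 0 values of 33.6 and 40.5 CPM and was below day 12 (-0.93 ± 0.11, adjusted p = 4.2e-06). Srebf2 stayed above day 0, at 464 and 529 CPM (0.88 ± 0.13, adjusted p = 7.1e-05), and below day 12 (-0.40 ± 0.13, adjusted p = 0.012), though the second call was lost without replicate A of the last group (0.060) or day 12 replicate A (0.060). Of the 6 control genes, 4 were higher and 2 lower than at day 0, with a median of 0.36. Insig1 rose by 0.45 ± 0.13 (adjusted p = 0.0091, and 0.13 without day 0 replicate A). Insig2 rose by 0.28 ± 0.10 (adjusted p = 0.040), a call lost with library size alone (0.067), without replicate A of the last group (0.092) and without day 0 replicate A (0.18) or B (0.058). Against day 12 both rose, by 0.81 ± 0.13 and 0.48 ± 0.10 (adjusted p = 5.2e-05 and 0.00075). Stard4 was the other gene higher, and Srebf1 and Scap were lower, Scap by 0.64 ± 0.12 (adjusted p = 0.00054).

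From 8 to 12 days after withdrawal, 8 genes were higher and 0 lower (1.54% and 2.18% of all genes). They were Acat2, Hmgcs1, Mvd, Fdps, Fdft1, Sqle and Msmo1 of sterol synthesis, and Acss2. The calls of this step rested on single libraries. They were fewer, among members and all genes alike, without either 8-day library or without replicate A of the 12-day group. Without replicate B of the 12-day group, more were called in both directions, among members and all genes. The sign of the fold changed in 9 members without replicate A of the 12-day group and in 5 without its replicate B. The 2 libraries at 12 days also differed by role. Replicate A was above B in 13 of 18 sterol synthesis genes, and B was above A in 10 of 11 fatty acid genes and 3 of 3 export genes. Stard4, a sterol carrier gene, was at 131 CPM in A and 254 CPM in B, so its fold against day 12 (0.02 ± 0.21) says little of the group.

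**Figure D4:**
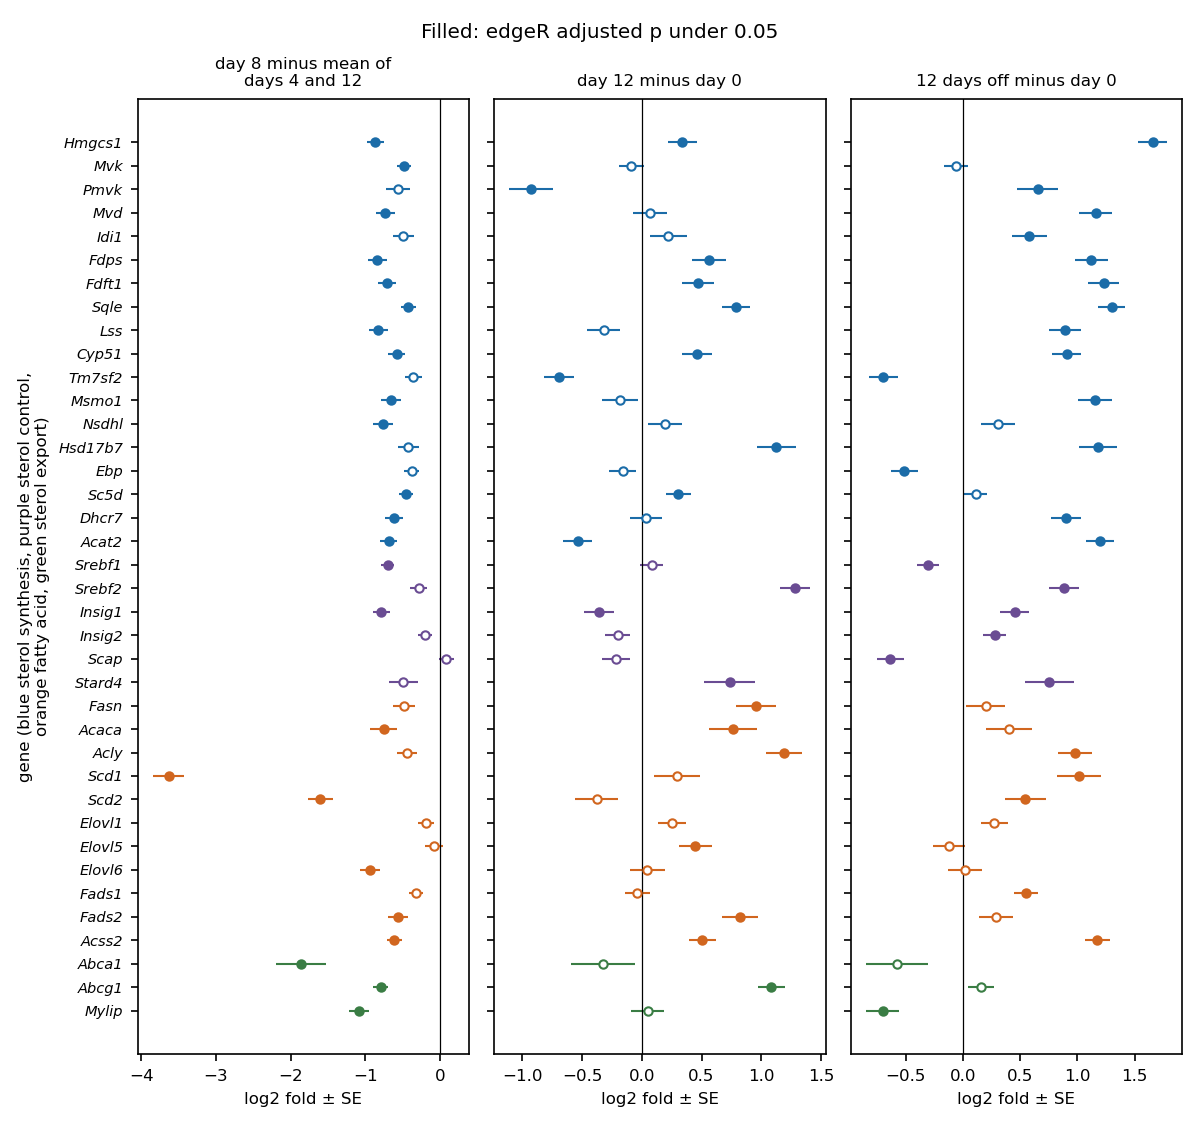
Points are log2 folds of the 38 genes with SE bars in 3 comparisons, filled where the edgeR adjusted p was under 0.05 and coloured by role. Scd1 at day 8 (-3.63) lies farthest from 0, most fatty acid genes lie right of 0 at day 12 against day 0, and 13 of 18 sterol synthesis genes are filled to the right 12 days after withdrawal.

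Other genes of these pathways were taken from lists of further enzymes, receptors and regulators. At day 8 against the mean of days 4 and 12, where 1.66% of all genes were lower and 0.835% higher, the 3 lists that follow had genes called lower. Of 16 further genes of sterol processing, uptake and SREBP cleavage, 1 was lower and 0 higher. That gene was Scarb1, a receptor for high-density lipoprotein, at 326 and 403 CPM on day 4, 146 and 174 CPM on day 8 and 239 and 226 CPM on day 12 (-0.86, edgeR adjusted p = 0.0023). Of 9 genes of the LXR axis, Arl4c (-0.55, adjusted p = 0.0057) and Lpcat3 (-0.54, adjusted p = 0.013) were lower and 0 higher. The LXR genes Nr1h2 and Nr1h3 differed in level: Nr1h2 was at 150 to 197 CPM in all libraries and Nr1h3 at no more than 1.04 CPM. Of 20 further fatty acid genes, 4 were lower, namely Scd3, Scd4, the citrate carrier Slc25a1 (-0.51, adjusted p = 0.022) and Idh1, a source of cytosolic NADPH (-0.89, adjusted p = 0.00042).

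Against day 0, 7 of the 16 further sterol genes were higher and 1 lower at day 12, and 10 were higher and 2 lower at day 4; of all genes 30% were higher and 33.4% lower at day 12, and 28.2% and 31% at day 4. Among them were genes that handle stored or lysosomal cholesterol, Npc1 (day 12 fold 1.35, edgeR adjusted p = 4.6e-06) and Nceh1 (1.51, adjusted p = 4.5e-08). Npc1 was at 34.4 and 32.5 CPM on day 0, 86.5 and 83.9 CPM on day 12 and 27.3 and 39.7 CPM 12 days after withdrawal, so the last group overlapped the untreated cells. In the LXR axis, Rxra rose by 3.17 (adjusted p = 7.9e-09) while Apoe, an acceptor of effluxed cholesterol, fell by 2.60 (adjusted p = 2.5e-07) at day 12. Of the 20 further fatty acid genes, 4 were higher and 10 lower at day 12, against the same 30% and 33.4% of all genes, with Mlxipl, a carbohydrate-responsive regulator of lipogenic genes, lower by 2.90 on the log2 scale (adjusted p = 2.0e-08).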

How the data were processed

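Per the labels' protocols, RNA of FACS-sorted AML246 cells was prepared on a column kit and sequenced on an Illumina NextSeq500. The deposited files give whole-number read counts per Entrez gene and a gene length. The submitters' processing notes name featureCounts, limma and edgeR and the mm10 build, without versions or roles; the aligner, and whether counting used strand, are not given in the sources used here, so reads of genes that overlap on opposite strands could not be told apart. A RefSeq table (GRCm38.p6) named 13216 of 13652 genes.

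Counts were scaled by TMM and tested two-sided by quasi-likelihood in edgeR 4.0.16 under R 4.3.3 with limma 3.58.1. All 16 libraries, with totals from 12962801 to 26509803, entered the same model, which had a mean for each group and 8 residual degrees of freedom. P-values were adjusted by Benjamini-Hochberg over all 13652 genes, and a gene was called at an adjusted p under 0.05. The SE is the size of the log2 fold over the square root of F. RPKM used the deposited lengths. The planned low-count filter removed no gene. The fit without it, counted among the 12 settings, therefore repeated the main fit and could not change a call. Alternatives were RLE factors, library size alone, a mean of at least 1 CPM, DESeq2 1.42.0, blocking on the replicate letter and omission of each library in turn; comparisons between neighbouring times, and of day 8 with the mean of days 4 and 12, were added after seeing the data. The scripts were tested on data simulated with the same dispersion for every gene. At day 12 against day 0, 45% of genes changed 1.5-fold were called there, and 98.6% of those changed 2-fold. A gene that was not called may therefore still have changed. Comparisons that share a group (day 0, day 8 or day 12) are not independent. Every member could be named, and of each further list up to 4 genes with the lowest adjusted p in a comparison; Nr1h2 and Nr1h3 were chosen after their values were seen. The members and lists were chosen with earlier results of these data known.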

Additional observations from a re-analysis of the deposited data

How the results depend on the processing

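With 1 library left out in turn, so that the library left alone was taken to vary like the other groups, members called ranged from 6 to 14 higher and 3 to 6 lower at day 4 against day 0, 1 to 4 higher at day 8, 2 to 6 higher and 4 to 10 lower 4 days after withdrawal, and 9 to 21 higher and 2 to 4 lower 8 days after it, all against day 0. For 4 days after withdrawal against day 12, the ranges were 0 to 1 higher and 9 to 16 lower. Day 8 against the mean of days 4 and 12 gave 6 to 25 lower, day 12 against day 8 gave 9 to 19 higher, 8 against 4 days after withdrawal gave 10 to 16 higher, and 12 against 8 days after withdrawal gave 0 to 11 higher and 0 to 8 lower. Library size alone gave 9 lower at day 12 against day 0. For 4 days after withdrawal against day 12, 2 members were higher in the reported fit, 1 with RLE factors, 4 with library size alone and 0 with DESeq2. Stard4 in the last group ranged from -0.50 (edgeR adjusted p = 0.0023) without its replicate B to 0.42 without A against day 12, and from -0.45 (0.0097) to 0.46 against 8 days after withdrawal. Deviations of same-lettered libraries correlated by over 0.1 in 8 of 28 pairs of groups (-0.09 to 0.26), among them every pair of day 4 and the 3 withdrawn groups, so the letters were not taken to pair the whole series. With a replicate block, 27 members were lower at day 8 against the mean in place of 24, 23 were higher 8 against 4 days after withdrawal in place of 19, and no member lost its call. With 1 library left out, the number of all genes called changed as well. Beyond the cases above the cause was not tested. With 2 libraries a group, small folds of low genes such as Abca1 are the least certain.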

Other observations

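Of 21 genes of fatty acid oxidation, 3 were higher and 10 lower at day 12 against day 0 (edgeR, adjusted p under 0.05). Of all genes, 30% were higher and 33.4% lower. The log2 folds of the 21 genes ranged from -1.21 to 5.89. Acadl, a long-chain acyl-CoA dehydrogenase gene, was at 194 and 210 CPM on day 0, 96.6 and 101 CPM on day 12 and 259 and 228 CPM 12 days after withdrawal. Its day 12 libraries lay below both other groups, and the folds were -1.03 at day 12 against day 0 (adjusted p = 5.3e-07) and 1.30 for the last group against day 12 (adjusted p = 4.5e-08). Hadh, which carries out a later step of the cycle, went from 107 and 136 CPM to 55.4 and 55.0 CPM and then to 159 and 128 CPM. At day 8 against the mean of days 4 and 12, 1 of the 21 genes was lower, the regulator Ppard (-0.38, adjusted p = 0.034).

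Of 13 genes that use isoprenyl products of the sterol pathway, 9 were higher and 2 lower 12 days after withdrawal against day 12 (edgeR, adjusted p under 0.05), where 32.9% of all genes were higher and 32.4% lower. Rabggtb, a subunit of the Rab prenylation enzyme, was at 169 and 142 CPM on day 0, 65.2 and 67.1 CPM on day 12 and 145 and 125 CPM in the last group, so the groups with and without the drug did not overlap at these times. Among 16 genes that activate fatty acids or assemble lipids, 3 were lower at day 8 against the mean of days 4 and 12, where 1.66% of all genes were lower: Acsl3 (-1.11, adjusted p = 5.9e-05), Acsl4 (-0.64, adjusted p = 0.0024) and Lpin1 (-0.92, adjusted p = 0.024). Acsl3, an acyl-CoA synthetase of the endoplasmic reticulum and lipid droplets, had 51.1 and 54.4 CPM at day 4, 20.7 and 22.1 CPM at day 8, 38.8 and 42.4 CPM at day 12 and 123 and 135 CPM 12 days after withdrawal.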
